A study of Mus musculus with 4 samples.

Results

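Myosins are the motor proteins that walk along or pull on actin filaments, and 47 myosin genes were examined in cultured mouse germline stem cells, the in vitro form of spermatogonial stem cells, after Nanos2 had been forced on. The members are all array probes, controls apart, whose gene name in the scanner files starts with Myh (heavy chains), Myl (light chains) or Myo (unconventional myosins) followed by a digit. The rule found 98 probes of 47 genes among 27366 gene names on the array. Of these genes, 14 were placed with muscle (8 striated heavy chains, 1 smooth muscle heavy chain and 5 striated light chains) and 33 outside muscle (3 heavy chains, 6 light chains and 24 unconventional myosins).

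All cells carried a Rosa-CreERT2 knock-in, a recombinase that 4-hydroxytamoxifen switches on, and the construct CAG-CAT-3FlagNanos2-pA, in which the ubiquitous CAG promoter drives tagged Nanos2 once the recombinase has acted. The control group took DMSO and the other group 4-hydroxytamoxifen (called tamoxifen in some labels) for 48 hours, with 2 arrays each. No group took the compound without the construct, so Nanos2, the compound and the recombinase cannot be told apart in this comparison. The cells grew on mitomycin-treated feeder fibroblasts from C57Bl6 embryos, which were removed before total RNA was taken. The labels give no age, strain or passage of the germline stem cells and do not say that the replicates were separate cultures, so the p-values speak only to differences among these 4 samples, whose spread within a group could be technical. A two-sided exact permutation test of 2 against 2 arrays stops at 0.333, so the p-values below come from limma, which shares its estimate of the spread across genes.

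A conventional myosin is a pair of heavy chains, each with a motor head and a long tail that bundles into filaments, and each head carries an essential and a regulatory light chain. Striated muscle, smooth muscle and other cells use different heavy chains, smooth and non-muscle myosin share light chains that differ from the striated ones, and phosphorylation of the regulatory light chain switches smooth and non-muscle myosin on. Unconventional myosins do not form such filaments and carry membranes, organelles and other cargo along actin. In the germ line, non-muscle myosin serves cell division and the bridges between sister cells, and the striated chains are textbook products of muscle fibres.

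The skeletal heavy chain genes are close copies of each other, so a pair of probes that read them is printed here. The probes were compared with each other and not with the transcripts of other genes. Such a comparison cannot show how far a signal can be assigned to 1 gene. Among 4676 pairs of member probes of different genes, 3 pairs shared over 70% of their bases in an ungapped alignment of at least 30 bases, and none more than 75.7%. One of these pairs reads Myh3 (chr11:66914857-66914916, plus strand, build mm9) and Myh4 (chr11:67072804-67072863, plus strand, mm9), with 40 of 55 aligned bases equal (72.7%). Capitals mark the equal bases, 5′ to 3′.
Myh3 probe: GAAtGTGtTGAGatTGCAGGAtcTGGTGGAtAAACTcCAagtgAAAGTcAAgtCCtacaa
Myh4 probe: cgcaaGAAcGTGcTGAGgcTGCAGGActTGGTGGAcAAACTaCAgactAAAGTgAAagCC
The other 2 pairs join a second Myh3 probe with this Myh4 probe and a Myh8 probe with a Myh1 probe. Whether any probe takes up RNA of a neighbouring copy was not tested.

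Promoters are shown because the skeletal genes of chromosome 11 rose together. RefSeq (GRCm38.p6) gave windows of 300 bases, 250 before and 50 after the start of transcription, for 41 of the 47 genes. These genes had 52 windows, and a gene counted when any of its windows held a match. The shares of all promoters below are counted per window, so the 2 kinds of share are not like for like. Matches to the MEF2 site, the binding motif of a muscle transcription factor family, were found in 3 of the 41 genes, against 3.19% of all 32851 promoters. They lay in Myh1 (chr11:67199852-67200151), Myh4 (chr11:67237562-67237861) and Myh8 (chr11:67276874-67277173), all on the plus strand and all with the same letters, TTATTTATAG. Matches to the CArG box, which serum response factor binds, were found in 7 of the 41 genes, against 1.63% of all promoters. Capitals mark both motifs, which read the same on either strand.
Myh1 promoter: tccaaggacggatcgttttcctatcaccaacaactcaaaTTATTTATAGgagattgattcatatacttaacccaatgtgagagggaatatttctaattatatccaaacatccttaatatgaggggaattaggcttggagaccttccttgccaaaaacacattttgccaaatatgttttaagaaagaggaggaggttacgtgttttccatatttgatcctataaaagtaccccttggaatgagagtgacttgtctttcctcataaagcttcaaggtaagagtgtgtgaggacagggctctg
Myh4 promoter: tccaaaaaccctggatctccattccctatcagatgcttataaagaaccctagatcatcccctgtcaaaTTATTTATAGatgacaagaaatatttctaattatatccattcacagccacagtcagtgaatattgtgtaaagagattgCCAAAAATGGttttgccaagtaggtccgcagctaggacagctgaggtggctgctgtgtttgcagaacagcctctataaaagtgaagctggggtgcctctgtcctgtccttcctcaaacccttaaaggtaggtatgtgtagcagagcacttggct
Myh8 promoter: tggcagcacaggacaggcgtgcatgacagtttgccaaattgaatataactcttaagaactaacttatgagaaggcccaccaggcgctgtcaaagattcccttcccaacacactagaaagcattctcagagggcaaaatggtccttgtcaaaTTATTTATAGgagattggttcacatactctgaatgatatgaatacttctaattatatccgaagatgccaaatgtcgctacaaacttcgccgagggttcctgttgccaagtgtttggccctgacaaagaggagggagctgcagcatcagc
Of the 7 genes with a CArG box, 4 rose (Myl9, Myo1e, Myl6 and Myh4), 2 did not pass the test (Myl3 and Myl7) and Myh13 was not measured. Myl9 (chr2:156775214-156775513, plus strand) and Myl7 (chr11:5898733-5899032, minus strand) are shown as a gene that rose and a gene that did not pass.
Myl9 promoter: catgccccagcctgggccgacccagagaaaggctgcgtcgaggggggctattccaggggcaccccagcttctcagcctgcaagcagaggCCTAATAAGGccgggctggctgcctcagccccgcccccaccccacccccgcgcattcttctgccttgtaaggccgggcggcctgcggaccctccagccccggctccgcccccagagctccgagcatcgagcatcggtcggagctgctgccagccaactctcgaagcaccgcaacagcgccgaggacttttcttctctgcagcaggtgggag
Myl7 promoter: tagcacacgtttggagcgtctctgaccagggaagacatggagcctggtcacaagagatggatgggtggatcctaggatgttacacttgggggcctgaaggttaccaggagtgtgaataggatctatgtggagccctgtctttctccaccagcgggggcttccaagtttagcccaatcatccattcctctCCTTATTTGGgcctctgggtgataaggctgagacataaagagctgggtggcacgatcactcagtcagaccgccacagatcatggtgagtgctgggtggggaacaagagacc
The short MCAT element (CATTCC, or GGAATG on the other strand), which TEAD factors bind, was found in 13 of the 41 genes and in 14.7% of all promoters. These matches describe the letters only and show no binding.

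Most myosin genes that could be measured were higher after 4-hydroxytamoxifen. A gene counted as measured when 2 or more of the 4 arrays showed a probe well above background, and 43 of the 47 genes passed, read by the probe with the highest mean signal. Of the 43, 33 rose (76.7%), 4 fell (9.30%) and 6 did not pass the threshold of an adjusted p of 0.05 (limma, Benjamini-Hochberg over all 17537 genes measured). Over all genes measured, 40.3% rose and 29.3% fell. A rise of at least 2-fold past the threshold was seen for 18 myosin genes, against 16.2% of all genes, and such a fall for 2, against 8.18% of all genes. The groups' arrays did not overlap for 40 of the 43 genes, against 86.5% of all genes. The median log2 difference, 4-hydroxytamoxifen minus DMSO, was 0.79 over the myosin genes and 0.11 over all genes. Myh1, Myo16 and Myl10 passed the filter through their 4-hydroxytamoxifen arrays alone, so it admitted them only where they were high. With the filter on all 4 arrays, 29 myosin genes rose and 4 fell.

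Muscle and non-muscle members both mostly rose. Among 12 muscle genes measured, 8 rose, 1 fell and 3 did not pass, with a median difference of 0.80. Among 31 non-muscle genes measured, 25 rose, 3 fell and 3 did not pass, with a median of 0.78. The difference between the medians was not tested, and it depends on the choice of probe: with all probes of a gene averaged they were 0.99 and 0.68. With Myl9 and Myo18b, which serve muscle too, counted as muscle, the medians were 0.98 and 0.72. The median of all genes was 0.11 with arrays scaled to their 75th percentile (57.9% of calls higher), -0.06 with arrays scaled to their median (46.7% higher) and -0.07 with arrays scaled to spike-in RNA (48.1% higher). These scalings subtract 1 constant per array, so all genes shift together, and the muscle and non-muscle medians stand 0.69 and 0.67 above the median of all genes in each.

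**Figure D1:**
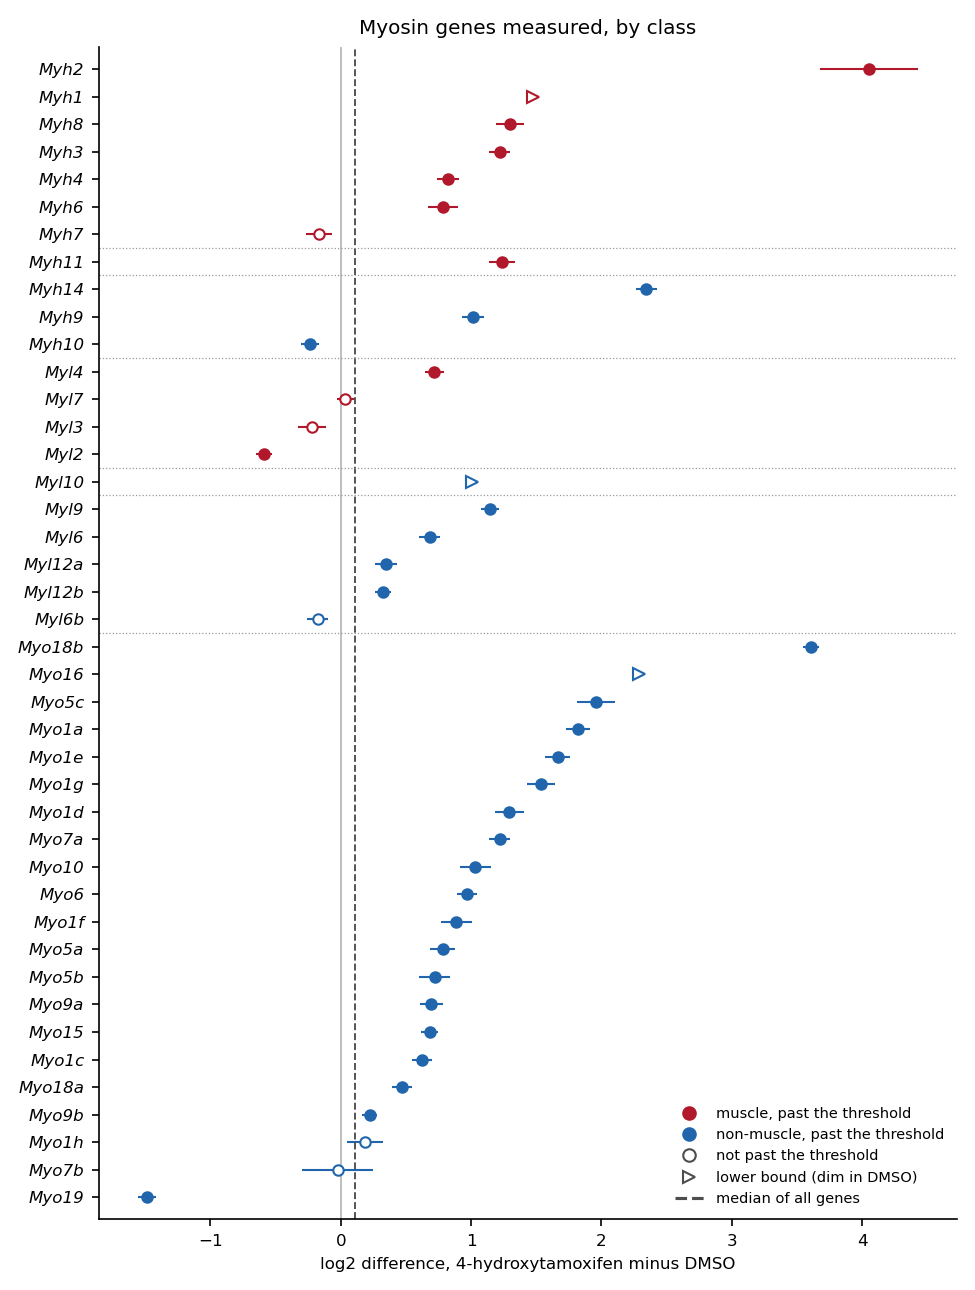
Log2 difference (4-hydroxytamoxifen minus DMSO, x axis) of measured myosin genes (y axis), grouped by class between dotted lines in the order striated, smooth and non-muscle heavy chains, striated light chains, Myl10, smooth and non-muscle light chains, and unconventional myosins. Points are limma estimates with their standard error, open points did not pass the threshold, triangles are lower bounds for genes dim in both DMSO arrays, and the dashed line is the median of all genes at 0.11; most points lie to its right, with Myo19 far to the left.

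Marker lists of cells that are not germ cells rose beside the myosins. The counts below stand beside 40.3% higher and 29.3% lower over all genes measured. Of the embryonic fibroblast markers, 29 of 31 measured rose and none fell, with a median difference of 0.90 and a summed level of 512 and 582 under DMSO and 1020 and 971 after 4-hydroxytamoxifen (in multiples of each array's 75th percentile). Of the macrophage and blood markers, 10 of 14 measured rose and none fell, with a median of 0.85 and a summed level of 17.8 to 19.6 against 37.8 to 38.9, while Itgam, Spi1 and Cx3cr1 were not measured above background. Hba-a1 gave 1.44, Adgre1 1.40 and Aif1 1.39, the largest of this list. Ptprc (0.01), Cd68 (0.11), Laptm5 (0.28) and Hbb-bt (-0.24) did not pass. Most of the summed level was that of Lyz2, which gave 1.07. Of the germ cell markers, all 17 on the array were measured, 11 fell and Tdrd1 rose, with a median of -0.70 (-0.43 with Ret, which was not well above background after 4-hydroxytamoxifen, at its bound). Gfra1, the GDNF receptor, gave -2.45 and Rhox13 -1.60. Ddx4 (-0.17), Sall4 (-0.16), Taf4b (-0.25), Stk31 (0.06) and Mael (0.12) did not pass. The summed level of the germ cell markers was 324 to 328 in DMSO and 257 to 262 after 4-hydroxytamoxifen. In bulk RNA, fewer cells of a type and less RNA per cell cannot be told apart. The part that feeder or blood cells have in the rise of the myosin genes was not tested. Among the fibroblast markers the highest differences were 1.48 (Thbs1), 1.40 (Pdgfrb) and 1.30 (Twist2), and 8 of the 43 myosin genes lay above the first: Myh2, Myh14, Myo18b, Myo16, Myo5c, Myo1a, Myo1e and Myo1g. By their other measured probes, Myo1a gave 0.97 and Myo1e 0.55 and 1.38, all below 1.48. With normexp, at least Myo16 and Myo5c lay below 1.48. Against the highest marker of other lists, 9 myosin genes lay above for macrophage and blood (1.44), 9 for smooth muscle (1.40), 4 for cardiac and 2 for epithelial (3.03) markers, and Myh2 alone for skeletal markers (3.81). Myo16 is counted above the fibroblast, macrophage and blood, smooth muscle and cardiac markers. Myh1 is counted above the macrophage and blood and the smooth muscle markers. Both stand at their bound and passed the filter through their 4-hydroxytamoxifen arrays alone, where they were high.

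The skeletal muscle heavy chains sit in a row on chromosome 11 in the order Myh3, Myh2, Myh1, Myh4, Myh8 and Myh13. The 5 that were measured all rose, with a median of 1.30, though Myh1 passed the filter through its 4-hydroxytamoxifen arrays alone. Myh2, the heavy chain of fast oxidative fibres, showed the largest fitted difference among members not dim in a whole group. Its probe (chromosome 11, 67010910 to 67010969, mm9) read 9.86 and 20.8 under DMSO, above background on 1 of these arrays, and 223 and 229 after 4-hydroxytamoxifen. The groups lay far apart, and the fitted difference was 4.05 ± 0.38 (SE; 16.6-fold; adjusted p = 0.00158). The size depends on the background correction: with normexp, whose added offset of 50 shrinks the differences of dim probes, it was 1.97 and lay below those of Myo18b (3.37) and Myh14 (2.29). A second Myh2 probe that overlaps it read 6.13 and 9.69 against 241 and 256, at least 15.2-fold higher since it was not well above background in either DMSO array. Both remaining Myh2 probes, 4.54 and 23.4 kb upstream, were not measured.

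Myh1, the heavy chain of another fast fibre type, was not well above background in DMSO either. Its measured probe (67037938 to 67037997) gave 3.25 and 3.74 in DMSO and 42.8 and 48.4 after 4-hydroxytamoxifen, at least 2.78-fold higher (adjusted p = 0.000366). Such a bound sets the mean of the brighter group against the lowest signal well above background on the dim arrays, or the probe's own signal where higher. With no filter on dim probes another Myh1 probe represents the gene, and the call is lost (0.67, adjusted p = 0.166; range over the alternatives 1.58e-59, with spike-in scaling, to 0.166). With normexp the difference was 0.95.

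Myh3, Myh8 and Myh4 were well above background on all 4 arrays. Myh3, the embryonic heavy chain of developing muscle, read 1063 and 1098 in DMSO and 2262 and 2532 after 4-hydroxytamoxifen. Both DMSO arrays lay well below both others, a difference of 1.22 ± 0.08 (adjusted p = 0.000881), and its second probe, which overlaps the first, gave 1.19. Myh8, the perinatal heavy chain, read 403 and 397 against 856 and 1025, a difference of 1.30 ± 0.11 (adjusted p = 0.00127). Its 3 other probes, 13.6 to 27.6 kb upstream, were not measured. Myh4, the heavy chain of fast glycolytic fibres, read 274 and 249 against 432 and 449, a difference of 0.82 ± 0.08 (adjusted p = 0.00184). The second Myh4 probe, 1.03 kb downstream, read 23.8 and 24.3 against 70.2 and 71.7, a larger difference of 1.63. Myh13, the heavy chain of eye muscles, was not well above background on any array.

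The cardiac pair on chromosome 14 split. Myh6, the alpha heavy chain of heart muscle, read 1573 and 1463 in DMSO and 2275 and 2729 after 4-hydroxytamoxifen, a difference of 0.79 ± 0.12 (adjusted p = 0.00520). Its neighbour Myh7, the beta heavy chain of heart and slow fibres, read 913 and 993 against 863 and 754, a difference of -0.17 ± 0.10 that did not pass (adjusted p = 0.197). The difference between the genes was not tested. The Myh7 call depends on the scaling, since with arrays scaled to their median the difference was -0.34 and passed (adjusted p = 0.0329; range 0.0329 to 0.581). Both probes of each gene gave close values, 0.71 and 0.79 for Myh6 and -0.18 and -0.17 for Myh7. Myh11, the heavy chain of smooth muscle, was read by 1 probe and gave 95.7 and 108 in DMSO and 215 and 242 after 4-hydroxytamoxifen. Its groups did not overlap, and it rose by 1.24 ± 0.10 (adjusted p = 0.00121).

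**Figure D2:**
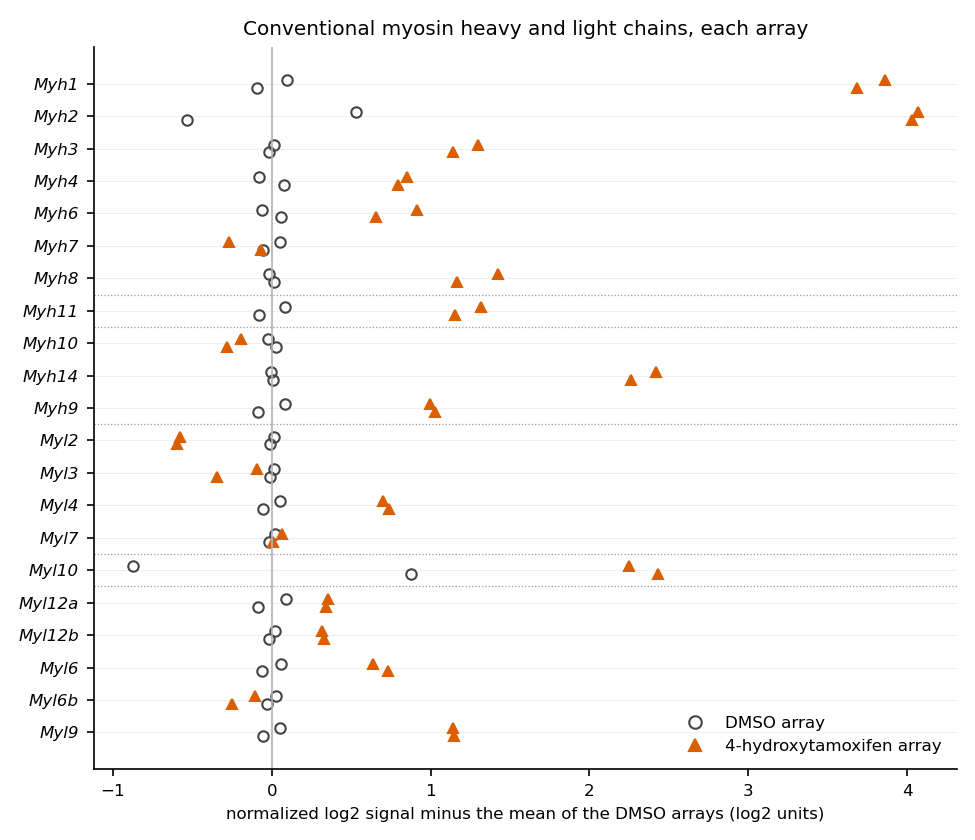
Normalized log2 signal of each array minus the mean of the DMSO arrays (x axis) for the 21 measured heavy and light chain genes (y axis), with circles for the 2 DMSO arrays and triangles for the 2 4-hydroxytamoxifen arrays. Triangles lie to the right of both circles for most genes and to the left for Myh10, Myh7, Myl2, Myl3 and Myl6b. The DMSO circles of Myh1 and Myl10, and 1 of those of Myh2, are not well above background.

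The striated light chains were mixed. Of 5 genes, 4 were measured, 1 rose, 1 fell and 2 did not pass, with a median of -0.09. Myl4, the essential light chain of atrium and embryonic muscle, read 162 and 176 in DMSO and 268 and 262 after 4-hydroxytamoxifen, a rise of 0.72 ± 0.07 (adjusted p = 0.00180). Myl2, the regulatory light chain of ventricle and slow fibres, read 79.2 and 81.2 against 50.4 and 51.2. At this scaling it was the only muscle gene that fell, by 0.59 ± 0.06 on the log2 scale (adjusted p = 0.00192), and by 0.26 with normexp. Myl3, the essential light chain of ventricle and slow fibres, read 106 and 109 against 80.4 and 96.2, a difference of -0.22 ± 0.11 that did not pass (adjusted p = 0.136). It did pass without 4-hydroxytamoxifen replicate 2 (-0.35, adjusted p = 0.0444), with arrays scaled to their median (-0.39, adjusted p = 0.0299) and with quantile normalization (-0.36, adjusted p = 0.0451; range 0.0299 to 0.392). Myl7, the regulatory light chain of the atrium, read 972 and 1006 against 947 and 984, and its groups overlapped, with a difference of 0.04 ± 0.06 (adjusted p = 0.641). Myl1, the essential light chain of fast fibres, was not measured. Mylpf, the regulatory light chain of fast fibres, has no digit in its name and so lies outside the rule, but stands in the list of skeletal markers. It read 222 and 207 against 439 and 482, a difference of 1.17 ± 0.08 (adjusted p = 0.000988).

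Of the 5 light chains of smooth and non-muscle myosin, 4 rose and 1 did not pass, with a median of 0.35. Myl9, the regulatory light chain of smooth muscle and contractile cells, read 9977 and 10856 in DMSO and 21883 and 21925 after 4-hydroxytamoxifen. This was the largest difference among the 5, at 1.14 ± 0.07 (adjusted p = 0.000768). Myl6, the essential light chain shared by smooth and non-muscle myosin, read 41126 and 45190.3 against 68099 and 63804, a rise of 0.68 ± 0.08 (adjusted p = 0.00278). Its second probe gave 0.71. Myl12a, a regulatory light chain of non-muscle cells, read 209 and 239 against 270.1 and 272, a difference of 0.35 ± 0.09 (adjusted p = 0.0237). Its near copy and neighbour on chromosome 17, Myl12b, read 36808 and 38232 against 44763 and 44584, a difference of 0.32 ± 0.06 (adjusted p = 0.0108). The second Myl12b probe, 0.277 kb downstream, differed by 0.00 and did not pass.

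Both Myl12 calls were fragile, and were also lost with arrays scaled to their median or to spike-in RNA. Without DMSO replicate 1, Myl12a gave an adjusted p of 0.0798 and Myl12b of 0.0537, without 4-hydroxytamoxifen replicate 1 they gave 0.0942 and 0.0557, and without 4-hydroxytamoxifen replicate 2 they gave 0.0985 and 0.0522. Over all alternatives the adjusted p ran from 0.0132 to 0.515 for Myl12a and from 0.000299 to 0.584 for Myl12b. Myl6b, an essential light chain of slow muscle and non-muscle cells, read 505 and 531 against 415 and 459, a difference of -0.18 ± 0.08 that did not pass (adjusted p = 0.119). With arrays scaled to their median it was -0.35 and passed (adjusted p = 0.0179; range 0.0179 to 0.369). This probe lies on the strand opposite to the gene, and the Myl6b probe on the gene's own strand was not measured, so the value is not one of Myl6b mRNA. Myl10, a regulatory light chain found in few tissues, read 12.4 and 3.73 in DMSO, not well above background, and 34.9 and 30.9 after 4-hydroxytamoxifen. It was at least 2.01-fold higher (adjusted p = 0.0290), a call lost without 4-hydroxytamoxifen replicate 1 (adjusted p = 0.124) or replicate 2 (adjusted p = 0.107; range 4.05e-22, with spike-in scaling, to 0.124). Its fitted difference moved from 2.34 to 1.47 without DMSO replicate 2 and to 0.61 with normexp.

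Of the 3 non-muscle heavy chains, Myh14 and Myh9 rose, and the probes of Myh10 disagreed. Myh14, the heavy chain of non-muscle myosin IIC, read 1979 and 1980.0 in DMSO and 9051 and 10102 after 4-hydroxytamoxifen. The DMSO arrays were nearly equal and the rise was 2.34 ± 0.08, or 5.07-fold (adjusted p = 0.000403). Its probe lies at chromosome 7, 51861189 to 51861248, and the other Myh14 probe, 23.0 kb upstream, was not measured. Myh9, the heavy chain of non-muscle myosin IIA, which drives contraction at the cell cortex, read 25858 and 29380.5 against 53407 and 52453, a rise of 1.01 ± 0.08 (adjusted p = 0.00127). A second Myh9 probe, 45.5 kb upstream, read 72.2 and 75.6 against 77.9 and 79.4, a difference of 0.16 that did not pass (adjusted p = 0.101 in the limma fit of all probes), and the mean of both was 0.59. Myh10, the heavy chain of non-muscle myosin IIB, read 1194 and 1165 against 924 and 984 with its brightest probe, a fall of 0.24 ± 0.07 on the log2 scale (adjusted p = 0.0383). Its second measured probe, 0.950 kb downstream, read 653 and 639.7 against 819 and 742 and was higher, by 0.34 ± 0.08 (adjusted p = 0.0235 in the fit of all probes).

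No direction can therefore be given for Myh10 as a gene. The mean of its probes gave 0.05 (adjusted p = 0.505), and the call of the brightest probe was lost without any 1 of the 4 arrays. The adjusted p was 0.147 without DMSO replicate 1, 0.0886 without DMSO replicate 2, 0.148 without 4-hydroxytamoxifen replicate 1 and 0.0730 without 4-hydroxytamoxifen replicate 2. Over all alternatives it ran from 0.00879 to 0.505.

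Of the 24 unconventional myosins, 22 were measured, 18 rose, 2 fell and 2 did not pass, with a median of 0.83. Myo18b, a myosin of heart and skeletal muscle needed to build sarcomeres, rose most by a measured value. Its probe (chromosome 5, 113117913 to 113117972) read 357 and 346 in DMSO and 4109 and 4056 after 4-hydroxytamoxifen, a difference of 3.61 ± 0.06, or 12.2-fold (adjusted p = 0.000366). The spread within each group was small against this gap. Its second probe, 128 kb upstream, was not measured. Myo16, a myosin known from neurons, read 10.3 and 5.19 in DMSO, not well above background, and 88.7 and 72.1 after 4-hydroxytamoxifen, at least 4.89-fold higher (adjusted p = 0.00213). With normexp its difference was 0.90.

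The next 4 in size belong to classes known from epithelia, kidney and blood. Myo5c, which moves secretory vesicles in glands, read 24.2 and 26.5 in DMSO and 106 and 82.7 after 4-hydroxytamoxifen, a rise of 1.96 ± 0.14 (adjusted p = 0.00103), and of 0.86 with normexp. Myo1a, the membrane link of the intestinal brush border, read 197 and 207 against 631 and 728, a rise of 1.82 ± 0.09 (adjusted p = 0.000609). The second Myo1a probe gave 0.97. Myo1e, which works in endocytosis and in kidney podocytes, read 518 and 555 against 1512 and 1736, a rise of 1.67 ± 0.10 (adjusted p = 0.000705). The other Myo1e probes gave 0.55, which did not pass, and 1.38. Myo1g, a membrane myosin of blood cells, read 85.0 and 92.6 against 226 and 265, a rise of 1.53 ± 0.11 (adjusted p = 0.000930). In each of these genes both 4-hydroxytamoxifen arrays exceeded both DMSO arrays. The epithelial markers as a list went both ways, with 6 higher and 3 lower of 12 measured. Over all genes measured, 40.3% were higher and 29.3% lower. Krt18 at 3.03, Krt8 at 2.47 and Elf3 at 2.09 were the largest, while Epcam (-1.45), Esrp1 (-1.27) and Cdh1 (-0.45) fell.

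By the probe that stood for each gene, 2 unconventional myosins fell. One of them, Myo19, the motor that moves mitochondria on actin, read 1340.2 and 1326 in DMSO and 438 and 468 after 4-hydroxytamoxifen. Both 4-hydroxytamoxifen arrays lay far below both DMSO arrays. It fell by 1.49 ± 0.07 on the log2 scale, 2.80-fold (adjusted p = 0.000519; probe at chromosome 11, 84724355 to 84724414).

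Apart from Myo5b and Myo9a, whose probes disagree, the 10 other unconventional myosins that rose ranged from 0.22 to 1.29, with a median of 0.83. They include Myo7a and Myo15, motors of hair cell stereocilia (1.22 and 0.68), Myo10 of filopodia (1.03), Myo6, which walks towards the minus end of actin (0.97), Myo1d (1.29), Myo1f of leukocytes (0.89), Myo5a, which carries melanosomes (0.78), Myo1c (0.63) and Myo18a of the Golgi (0.47). With spike-in scaling Myo1c gave 0.45 and Myo18a 0.29, and neither passed (adjusted p = 0.0653 and 0.242; ranges 6.42e-05 to 0.0653 and 0.000245 to 0.242). The mean of its 3 probes was 0.50 for Myo10, and Myo15 gave 0.33 with normexp. The smallest, Myo9b at 0.22, lost its call when any 1 array was left out, with an adjusted p of 0.142 without DMSO replicate 1, 0.0933 without DMSO replicate 2, 0.112 without 4-hydroxytamoxifen replicate 1 and 0.111 without 4-hydroxytamoxifen replicate 2 (range over the alternatives 0.00341 to 0.875). Myo1h (0.18) and Myo7b (-0.02) did not pass, and their groups overlapped. Myo1h passed without 4-hydroxytamoxifen replicate 1 (0.36, adjusted p = 0.0440; range 0.0440 to 0.979). Myo3a and Myo3b, motors of sensory cells, were not measured.

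Probes of the same gene did not always read alike. Of the 98 member probes, 72 were measured, 20 were dark on all 4 arrays and 6 were above background on 1 array only. Fitted probe by probe, 48 rose, 9 fell and 15 did not pass, where 36.2% of all 26393 probes rose and 31.1% fell. In the 34 genes with more than 1 probe, the probe nearest the 3′ end was measured in 30 of 34 cases, and 30 of the 51 other probes were measured. Among 21 genes with more than 1 measured probe, the probe differences spanned under 0.5 in 11 and over 1 in 5. In 3 of the 21 (14.3%), probes were called in opposite directions, against 8.40% of all 6320 genes with more than 1 measured probe. Besides Myh10 these were Myo5b, which recycles membrane from endosomes, and Myo9a, a myosin with a signalling domain in its tail.

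Myo5b read 125 and 117 in DMSO and 172 and 209 after 4-hydroxytamoxifen with its brightest probe, a difference of 0.72 (adjusted p = 0.00720), which with probes averaged was 0.24 and did not pass (adjusted p = 0.0803; range 0.00115 to 0.0803). A probe 1.06 kb upstream of the 3′-most one also rose, by 0.54, while the 3′-most probe read 71.1 and 74.4 against 44.6 and 51.7 and fell by 0.53. Myo9a read 183 and 201 against 310 and 283 with its 3′-most probe, a difference of 0.70 (adjusted p = 0.00329). A probe 2.56 kb upstream read 201 and 197 against 110.3 and 107.2 and fell by 0.80, and another gave -0.09. Neither gene has 1 direction on these arrays. Whether the probes read different transcript ends was not tested.

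**Figure D3:**
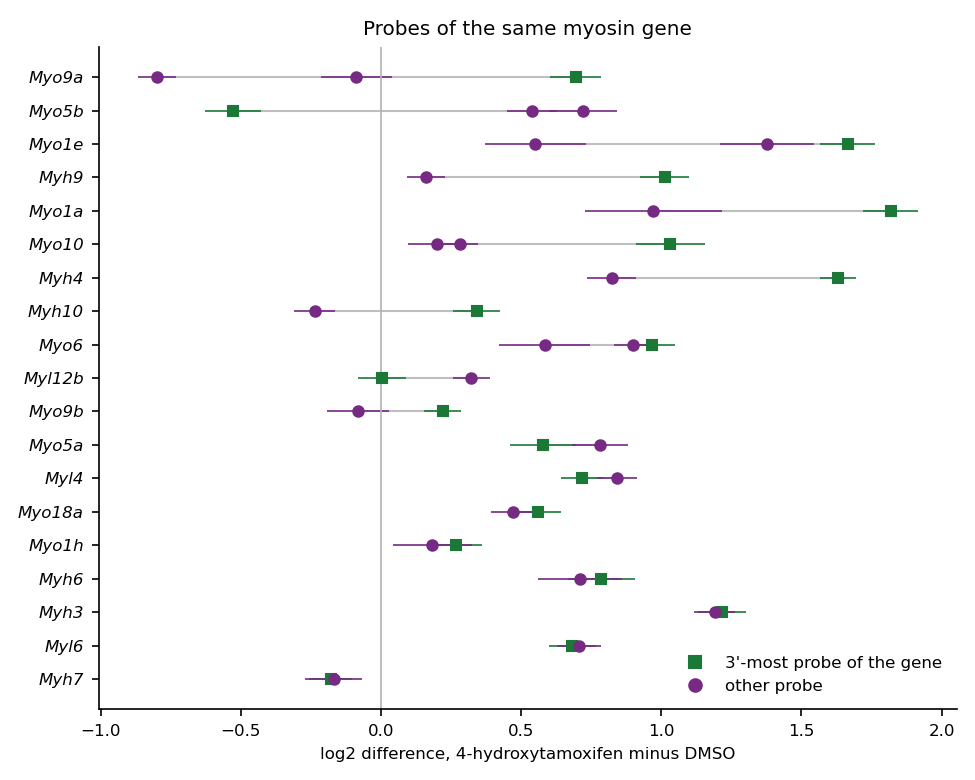
Log2 difference (4-hydroxytamoxifen minus DMSO, x axis) of each measured probe, with its standard error, for myosin genes read by more than 1 probe (y axis), ordered by the span between probes; squares mark the probe nearest the 3′ end and circles the others. Myo9a, Myo5b, Myh10 and Myo9b have probes on both sides of 0 (for Myo9b the lower did not pass), Myh3 and Myh7 probes nearly coincide, and Myh2, 1 of whose probes was dim in DMSO, is left out.

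The genes that regulate and partner myosins did not move as 1 group. Over all genes measured, 40.3% rose and 29.3% fell, and the counts of the regulators and of the cargo partners lay near these shares. Of 28 measured kinases, phosphatase subunits and other regulators of myosin, 9 rose and 10 fell, with a median of 0.03. The largest log2 differences were those of Ect2, the exchange factor that starts the cleavage furrow (-2.20), Dapk1, a kinase that phosphorylates light chains (3.99-fold higher), and anillin (Anln, -1.74), which ties myosin to the furrow. Mylk, the main light chain kinase of smooth muscle, differed by 0.02 and did not pass. Of 12 measured chaperones and myosin-binding proteins, 10 rose and Smyd1 fell, with a median of 0.99 (0.94 with dim genes at their bound). Mybpc2, the binding protein C of fast fibres, gave 4.32, Myom3, an M-band protein, gave 3.46, Myom1, another, gave 1.62, and Mybpc3 of the heart was at least 2.44-fold higher. Of 21 measured cargo adaptors and partners of unconventional myosins, 8 rose and 6 fell, with a median of 0.11. Mlph, which links Myo5a to melanosomes, was at least 4.16-fold higher, Espn, an actin bundler of stereocilia, gave -2.18, and Calm3, a calmodulin gene, gave -1.72.

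The lists of actins, tropomyosins and troponins hold genes of muscle and of other cells, and more of them rose than fell. The shares over all genes measured were 40.3% higher and 29.3% lower. Of 6 actins, 4 rose and Actb fell, with a median of 0.54, the largest being Acta2 of smooth muscle (1.05), Actc1 of heart (0.75) and Acta1 of skeletal muscle (0.72). Of 12 tropomyosins and troponins, 7 rose and Tnni3 fell, with a median of 0.85 (0.73 with Tnni1 at its bound). Tnnc2 gave 1.45, Tpm2 1.06, Tnnt2 1.05, and Tnni1 was at least 1.42-fold higher. Tpm3, Tnni2, Tnnt1 and Tnnt3 did not pass.

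Most measured markers of muscle cells rose, while several defining ones were not measured. Across all genes measured, 40.3% rose and 29.3% fell. Ckm and Ryr2 passed the filter through their 4-hydroxytamoxifen arrays alone. Of 15 measured skeletal markers, 10 rose and Pax7 fell, with a median of 0.94 (0.72 with Ckm at its bound) and a summed level of 4.03 to 4.07 in DMSO and 9.53 to 9.76 after 4-hydroxytamoxifen. Cacna1s, the calcium channel of the triad, gave 3.81, Neb, the thin filament ruler, 2.43, Pax7, a satellite cell factor, -2.04, Ttn 1.94, and Ckm was at least 1.59-fold higher. The factors that define the skeletal lineage, Myod1, Myf5 and Myf6, and also Pvalb and Casq1, were not measured, while Myog rose by 1.56. Of 8 measured cardiac markers, 6 rose and Tnni3 fell, with a median of 0.81 and a summed level of 3.18 to 3.23 against 4.38 to 4.63. Ryr2 was at least 4.01-fold higher, Ankrd1 gave 1.16 and Tnnt2 1.05, while Nppa, Nkx2-5, Gata4, Pln, Ckmt2 and Myoz2 were not measured. Of 10 measured smooth muscle markers, 9 rose, with a median of 0.92 and a summed level of 36.0 to 38.2 against 70.5 to 75.3. Lmod1 gave 1.40, Cald1 1.28 and Tagln 1.05, and Myocd and Casq2 were not measured. Some genes stand in more than 1 list, 4 of the skeletal, 3 of the cardiac, 3 of the smooth muscle and 1 of the fibroblast markers. The part of any such cells in the myosin values was not tested.

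**Figure D4:**
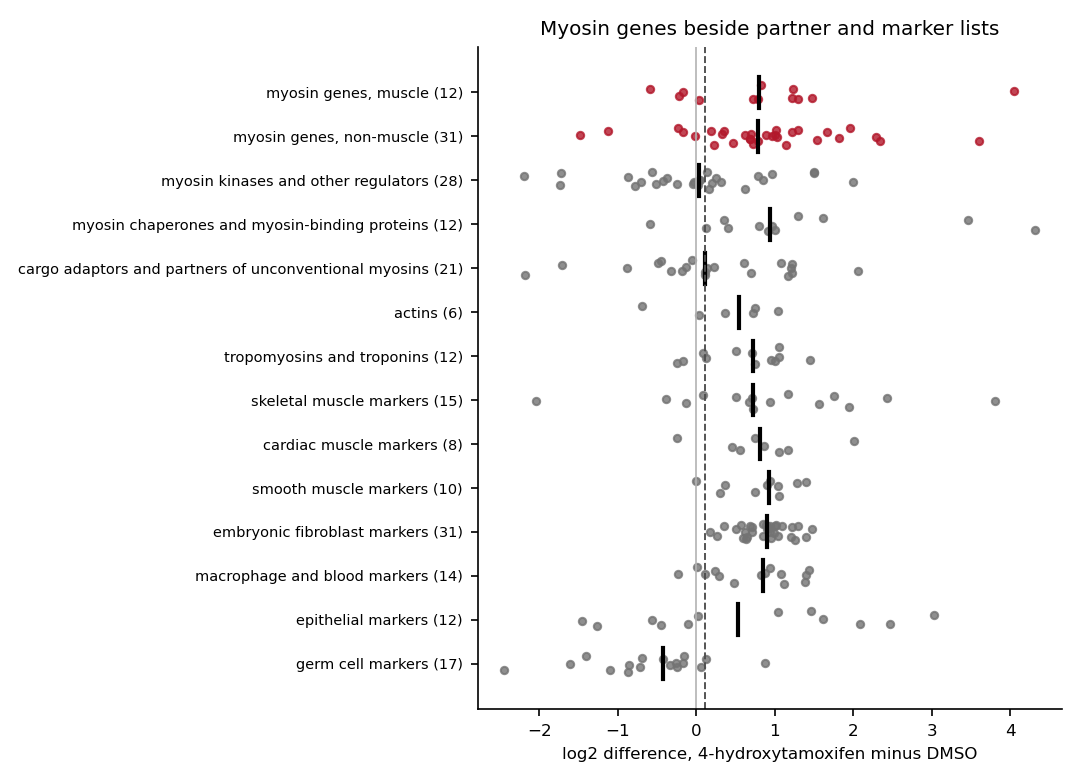
Log2 difference (4-hydroxytamoxifen minus DMSO, x axis) of every measured gene in the muscle and non-muscle myosin sets (red) and in the partner and marker lists (grey), with the number of genes in brackets; dim genes stand at their bound, black bars are medians, dots are spread vertically at random, and the dashed line is the median of all genes. The medians of both myosin sets (0.80 and 0.78) lie among those of the muscle, fibroblast and macrophage and blood markers (0.72 to 0.92), and the germ cell median (-0.43) is the only one below 0.

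Nanos2 itself, the gene the construct carries, was read beside the labels. Its probe (chromosome 7, 19573771 to 19573830) read 352.8 and 351.7 in DMSO and 904 and 1070.1 after 4-hydroxytamoxifen, a rise of 1.55 ± 0.10 (adjusted p = 0.000861). Whether this probe reads the construct, the cells' own Nanos2 or both was not tested. All 4 arrays stood on 1 slide read in 1 scan, with 62.1% to 65.9% of spots well above background and no saturated spot, and the small number of arrays limits the precision.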

How the data were processed

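Total RNA (0.20 µg, Cy3-labelled per the labels' protocols) of 2 DMSO and 2 4-hydroxytamoxifen samples was read on 1-colour Agilent arrays of design 014868. The deposited scanner files hold intensity values on a linear scale, background-subtracted by Agilent Feature Extraction 10.7.3.1 per the file headers (9.5 per the submitters' processing notes). The deposited value table holds log2 values, which differ from the log2 of the processed signals by a fixed offset in each array (0.290, 0.275, 0.362 and 0.356), and served as an alternative. Its scale, centring and direction were thereby known; its column medians were 6.16, 6.18, 6.35 and 6.35.

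Control and outlier spots (60 to 71 per array) were left out, spots of a probe averaged, and log2 processed signals scaled to each array's 75th percentile. Probes well above background (15.0 to 19.5 at the lowest, against 75th percentiles of 706 to 746) on at least 2 of 4 arrays were kept, and the brightest stood for its gene. The test was limma's (version 3.58.1, under R 4.3.3: lmFit and eBayes with the group as sole term), with Benjamini-Hochberg adjustment and a threshold of 0.05, and the code was tested on simulated data. Gene names were updated through RefSeq for 33656 of 41174 probes (7518 kept the file's name), and probe coordinates are the files' on mm9; exon and UTR positions of probes were not analysed here.

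The members and gene lists were chosen with earlier results of these data known. All measured heavy and light chains are named, with the 6 unconventional myosins of largest called difference in each direction, members with probes called in opposite directions, and the 3 called genes of each list with the largest fitted difference (dim genes ranked by it too, though only their bound is printed); other named genes were chosen after their values were seen. An item that these rules name is not reported here. Lists are described by counts and medians, with no test. Alternatives covered scaling, normalization, background correction, the filter, the choice of probe, the value table, the variance model, the class of a gene, the replicate block and leaving out each array.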

Additional observations from a re-analysis of the deposited data

How the results depend on the processing

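Of 37 called myosin genes, 27 kept call and direction under all alternatives run and 10 lost the call under at least 1, while 4 genes outside the threshold passed under at least 1. When all probes of a gene were averaged, Myh10 turned to 0.053 and Myo9a to -0.064. Genes higher over the whole array fell from 7064 to 4690 with spike-in scaling, and genes lower moved from 5130 to 8199 when each probe was a feature, which counts more features. Myosin genes lower moved from 4 to 9 probes in that fit and to 7 with median scaling. Leaving out each array gave 5898 to 6770 genes higher, 4128 to 4673 lower, 29 to 32 myosin genes higher, 3 to 4 lower, a muscle median of 0.76 to 0.88 and a non-muscle median of 0.77 to 0.88.

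The muscle median was 0.99 with all probes averaged, 0.63 with median scaling, 0.63 with spike-in scaling, 0.72 with normexp and 0.98 with Myl9 and Myo18b as muscle. The non-muscle median was 0.57 with each probe a feature, 0.75 with the filter on all 4 arrays, 0.68 with all probes averaged, 0.61 with median scaling, 0.61 with spike-in scaling, 0.68 with normexp, 0.72 with Myl9 and Myo18b moved, 0.68 for conventional chains alone, 0.83 for unconventional myosins alone, and 0.83 without the antisense Myl6b probe, an alternative chosen after seeing the data. The cause was not tested. Samples with the same replicate number showed no shared deviation (correlation of same-numbered deviations -0.05), which cannot show whether they came from 1 culture. A fit with the replicate block gave 32 myosin genes higher and 3 lower, and Myh10 and Myo9b lost their calls (adjusted p = 0.104 each, limma). Signal over background limits Myh1, Myo16 and Myl10 to bounds, and 4 members were not measured.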
